A study of Sus scrofa with 12 samples.

Results

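Genes that mark T cells and natural killer (NK) cells were followed in pig back fat, in every RNA-seq library of a study of breed and age. The 10 genes chosen by name were CD3E, CD3D, CD3G, CD2, CD8A, CD4, GNLY, NKG7, GZMB and PRF1. Of these, 8 were matched by symbol to a row of the 24358 genes in the count table, and all 8 passed the filter on low counts, which kept 15425 genes. CD3G and GZMB were not matched and were not analysed here. The groups were GS_80d and YK_80d, 80 d old, and GS_9d and YK_9d, 9 d old. GS is the Guangdong small-eared pig and YK the Yorkshire pig, and all animals are labelled wild type. Each group has 3 libraries, 12 in all, made from whole subcutaneous fat of the mid-back. The labels enter adipocyte as the cell type and do not say whether the samples of a group are separate animals, so the p-values below refer to the spread among the deposited samples and to nothing beyond it.

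T cells recognise peptides through the T cell receptor, which signals through the CD3 chains, while CD4 and CD8 act as coreceptors for class II and class I antigen presentation. NK cells and cytotoxic T cells kill target cells by releasing granules that hold perforin (PRF1), granzymes and granulysin (GNLY, known in pigs as NK-lysin). Fat holds resident lymphocytes between its adipocytes. In pigs the CD8 alpha chain is also carried by NK cells and by activated helper T cells, so CD8A alone does not mark cytotoxic T cells. In bulk tissue, fewer cells of a type and less RNA per cell cannot be told apart.

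The deposited values are estimated counts in which 1 sequenced fragment adds about 3.76 units, and the libraries held 12083904 to 16221635 fragments on that scale. The fat label was checked with ADIPOQ, the adipocyte hormone adiponectin, which stood at 6977 to 8672 CPM (counts scaled to a common library size with TMM factors) in GS_80d, 3165 to 5308 in YK_80d, 5951 to 11758 in GS_9d and 2545 to 8527 in YK_9d. The T and NK cell genes were rare by comparison, at 23.1 to 425 CPM summed over the 8 genes in a library. They were counted at 5 to 2609 fragments per gene and library, and CD3D and CD4 were the thinnest, with at most 86 and 93 fragments. Of the libraries, 3 held many skeletal muscle transcripts, which summed to 20505 CPM (YK_80d replicate 3), 17593 CPM (GS_9d replicate 3) and 3535 CPM (YK_9d replicate 1), while the other 9 held 104 to 285 CPM. YK_80d replicates 2 and 3 stood apart in lymphocyte transcripts, and the main results that rest on them are given with and without them.

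The CD3 genes were highest in YK_80d replicates 2 and 3. CD3E, the epsilon chain of the complex, stood at 3.90, 3.60 and 6.90 CPM in GS_80d replicates 1 to 3, against 4.24, 29.5 and 29.2 CPM in YK_80d. At 9 d it stood at 1.92, 4.98 and 2.35 CPM in GS_9d, against 0.749, 1.46 and 0.648 CPM in YK_9d. YK_80d replicate 1 lay within the GS_80d range, and the YK_9d libraries lay below every other library. CD3D, the delta chain, stood at 1.61, 1.96 and 1.46 CPM in GS_80d, against 0.937, 5.01 and 6.71 CPM in YK_80d. It stood at 1.55, 2.93 and 0.718 CPM in GS_9d, against 0.291, 1.02 and 1.62 CPM in YK_9d. For CD3D, YK_80d replicate 1 lay below all GS_80d libraries, and the groups overlapped at both ages. CD3E, CD3D and CD3G follow each other on 1 chromosome in the RefSeq annotation of Sscrofa11.1, and no source used here says whether the counting separated the strands.

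CD2, an adhesion receptor of T and NK cells, stood at 5.35, 5.42 and 6.56 CPM in GS_80d, against 4.60, 25.6 and 61.3 CPM in YK_80d. It stood at 5.48, 9.16 and 3.09 CPM in GS_9d, against 2.16, 2.44 and 0.608 CPM in YK_9d. The GS_80d libraries were close, with a highest level 1.23 times the lowest, while in YK_80d the highest was 13.3 times the lowest. CD8A, the alpha chain of the CD8 coreceptor, stood at 5.19, 6.22 and 11.9 CPM in GS_80d, against 4.96, 38.9 and 61.6 CPM in YK_80d. It stood at 5.50, 9.46 and 1.08 CPM in GS_9d, against 0.841, 1.54 and 0.689 CPM in YK_9d. GS_9d replicate 3 thus lay within the YK_9d range for CD8A. CD4, the helper T cell coreceptor, stood at 0.472, 1.12 and 2.27 CPM in GS_80d, against 2.11, 4.29 and 7.20 CPM in YK_80d. It stood at 0.646, 1.80 and 0.682 CPM in GS_9d, against 1.18, 1.44 and 0.547 CPM in YK_9d, so the breeds overlapped at both ages.

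GNLY, the granule protein that opens microbial and target cell membranes, separated the breeds at both ages. It stood at 4.14, 13.7 and 7.64 CPM in GS_80d, against 47.5, 165 and 146 CPM in YK_80d. At 9 d it stood at 38.9, 55.9 and 16.9 CPM in GS_9d, against 15.5, 10.05 and 10.5 CPM in YK_9d. GNLY was therefore the member for which YK_80d replicate 1 also lay above every GS_80d library, while at 9 d the GS libraries were the higher ones. PRF1, the pore-forming perforin, stood at 1.90, 3.71 and 3.51 CPM in GS_80d, against 3.62, 17.7 and 35.04 CPM in YK_80d. It stood at 3.28, 5.33 and 2.46 CPM in GS_9d, against 1.67, 2.15 and 1.07 CPM in YK_9d. NKG7, a membrane protein of cytotoxic granules, stood at 7.44, 6.19 and 12.8 CPM in GS_80d, against 8.84, 45.9 and 77.9 CPM in YK_80d. It stood at 11.5, 15.9 and 8.72 CPM in GS_9d, against 10.003, 10.8 and 7.36 CPM in YK_9d, with overlap at both ages.

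**Figure D1:**
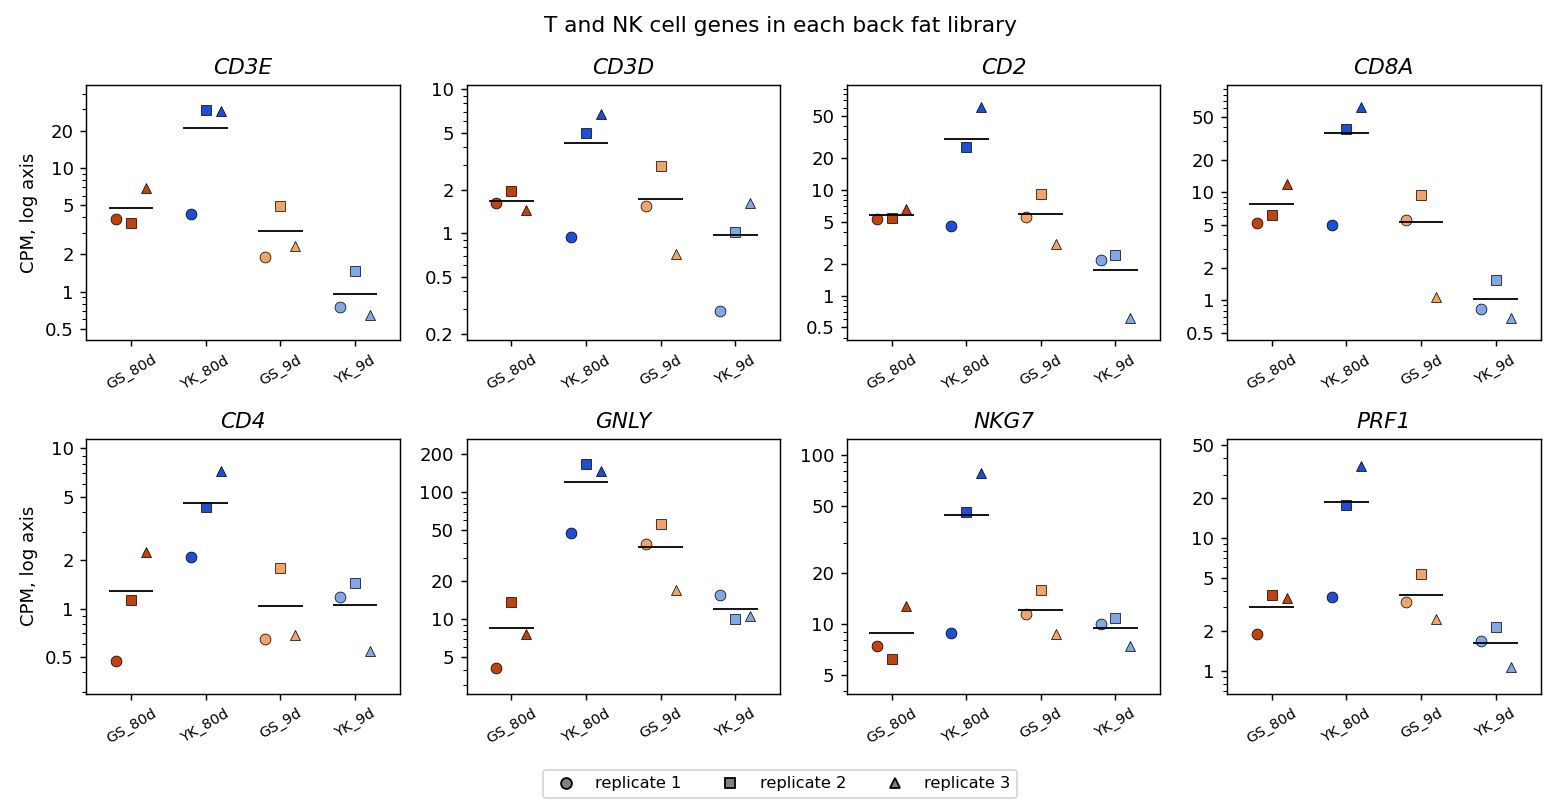
CPM (log axis) of the 8 T and NK cell genes in GS_80d, YK_80d, GS_9d and YK_9d, with 1 point per library, shapes for replicates 1 to 3 and a bar at the group mean. YK_80d replicates 2 and 3 are the highest points in every panel, and YK_80d replicate 1 stands above all GS_80d points in the GNLY panel only.

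The spread within YK_80d differed between the genes. YK_80d replicate 2 was 6.97 times replicate 1 for CD3E, 7.85 times for CD8A, 5.56 times for CD2 and 5.19 times for NKG7, but 3.47 times for GNLY and 2.04 times for CD4. YK_80d replicate 3 was 13.3 times replicate 1 for CD2, 12.4 times for CD8A and 9.68 times for PRF1, but 3.07 times for GNLY and 3.42 times for CD4. For each of the 8 genes no other library reached the level of either. YK_80d replicate 1 stood at 0.883 times the GS_80d mean for CD3E, 0.796 times for CD2, 0.640 times for CD8A and 1.001 times for NKG7, and at 5.61 times for GNLY.

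Between the breeds at 80 d, GNLY, PRF1 and NKG7 were called lower in GS. In edgeR's quasi-likelihood test with Benjamini-Hochberg adjustment over all genes, 3 of the 8 members passed an adjusted p of 0.05, all lower in GS. Of all genes tested, 6.12% passed, 3.17% higher and 2.95% lower in GS. GNLY averaged 8.48 ± 4.82 CPM in GS_80d and 119.5 ± 63.1 CPM in YK_80d (SD, n = 3 each), 14.1-fold lower in GS (log2 difference -3.82 ± 0.60, SE; adjusted p = 0.00614). PRF1 averaged 3.04 ± 0.988 CPM in GS_80d and 18.8 ± 15.7 CPM in YK_80d (-2.63 ± 0.66, adjusted p = 0.0366). NKG7 averaged 8.82 ± 3.54 CPM in GS_80d and 44.2 ± 34.6 CPM in YK_80d (-2.32 ± 0.60, adjusted p = 0.0442). GNLY was the single member whose groups did not overlap at 80 d, which 31.4% of all genes also showed.

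The receptor and coreceptor genes did not pass at 80 d, and granule and receptor genes were not tested against each other. The log2 difference was -2.13 ± 0.65 for CD3E (adjusted p = 0.0733), -2.40 ± 0.77 for CD2 (0.0873), -2.18 ± 0.86 for CD8A (0.153), -1.81 ± 0.73 for CD4 (0.152) and -1.33 ± 0.78 for CD3D (0.329). All 8 differences were negative, with a median of -2.25, against -0.02 over all genes tested.

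**Figure D2:**
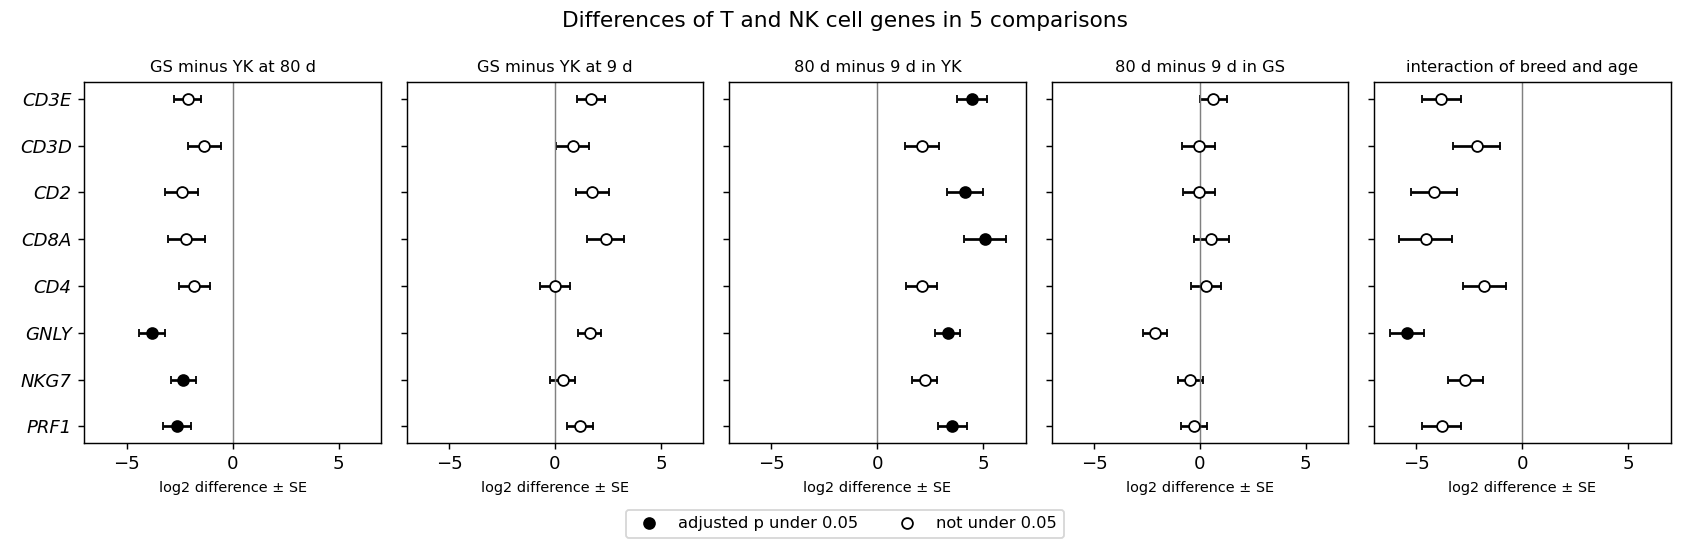
Log2 differences with standard errors of the 8 genes in 5 comparisons, filled where the adjusted p was under 0.05. At 80 d GNLY, NKG7 and PRF1 are filled on the side of lower levels in GS, between 9 d and 80 d in YK 5 genes are filled on the side of higher levels at 80 d, and in the interaction GNLY alone is filled.

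The calls at 80 d rested on the libraries to an unequal degree. GNLY kept its call in each of the 6 fits that left out 1 GS_80d or YK_80d library, with log2 differences of -4.35 to -3.495 and adjusted p up to 0.0358. NKG7 and PRF1 kept theirs in the fit without YK_80d replicate 1, at -2.81 and -3.12 (adjusted p = 0.00359 and 0.00715), and lost them in the other 5, with adjusted p up to 0.160 and 0.154. Without YK_80d replicate 1, CD3E and CD2 passed as well, at -2.62 and -2.91 (adjusted p = 0.0152 and 0.0203). Without YK_80d replicates 2 and 3 no member passed, in a fit that assumes the lone YK_80d library to vary like the other groups. GNLY then differed by -2.49 ± 0.63 (adjusted p = 0.0835), NKG7 by -0.002 ± 0.484 and PRF1 by -0.25 ± 0.66. CD3E, CD3D, CD2 and CD8A had positive differences in that fit, of 0.18, 0.84, 0.33 and 0.64. When the 3 muscle-bearing libraries were dropped, GNLY was the 1 member that passed, at -3.65 (adjusted p = 0.0194).

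**Figure D3:**
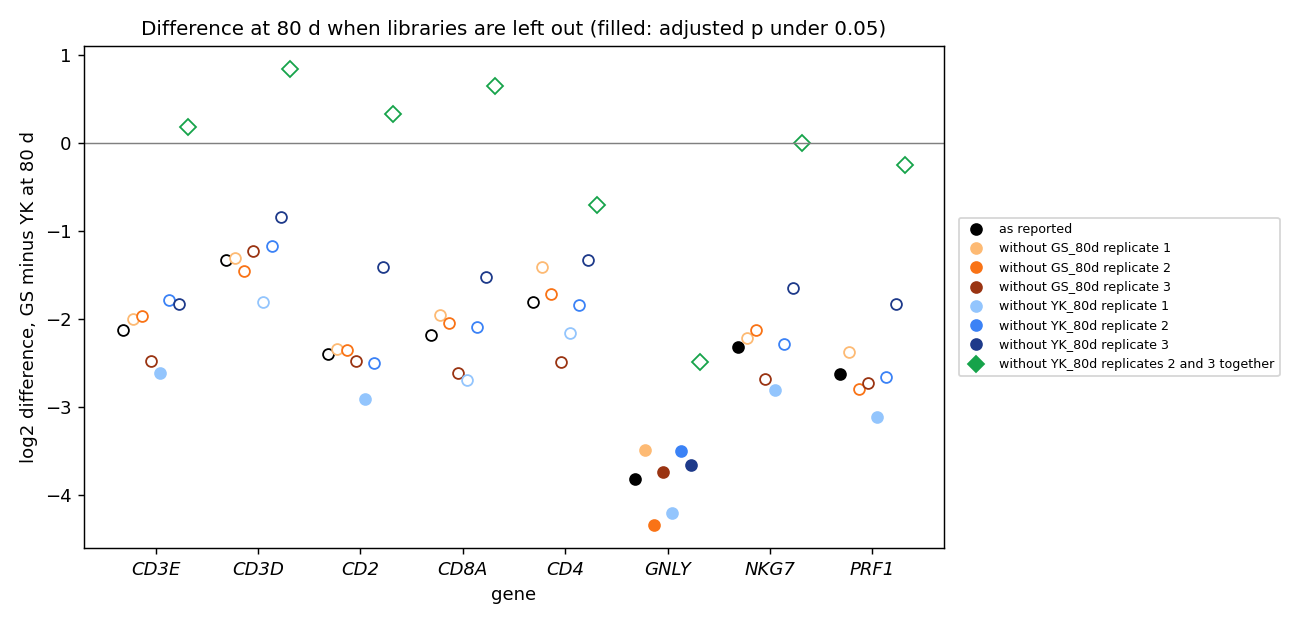
Log2 difference of GS minus YK at 80 d for each of the 8 genes as reported, without each of the 6 libraries in turn and without YK_80d replicates 2 and 3 together, filled where the adjusted p was under 0.05. GNLY stays filled in every fit but the last, and the diamonds of that last fit lie near or above 0 for 6 of the other 7 genes and at -0.71 for CD4.

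Between 9 d and 80 d in YK, 5 of the 8 members rose, where 1.21% of all genes passed in either direction and 0.81% rose. This comparison shares the YK_80d libraries with that of the breeds at 80 d. CD8A averaged 35.2 ± 28.5 CPM in YK_80d and 1.02 ± 0.455 CPM in YK_9d (log2 difference 5.10 ± 0.99, adjusted p = 0.0376). CD3E averaged 20.97 ± 14.5 CPM in YK_80d and 0.952 ± 0.442 CPM in YK_9d (4.46 ± 0.72, adjusted p = 0.0244). CD2 rose by 4.13 ± 0.84 (adjusted p = 0.0412), PRF1 by 3.53 ± 0.69 (0.0345) and GNLY by 3.31 ± 0.59 (0.0270). NKG7, CD3D and CD4 differed by 2.23 ± 0.60, 2.11 ± 0.80 and 2.10 ± 0.73 (adjusted p = 0.101, 0.262 and 0.209).

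For 6 of the 8 genes, CD4 among them, all YK_80d libraries lay above all YK_9d libraries, which 15.8% of all genes also showed as a separation in either direction. The 5 calls numbered 6 without YK_80d replicate 1 and 0 without any other single YK library, with the lost adjusted p values at 0.0518 to 0.138. Without YK_80d replicates 2 and 3 none passed, and the differences were 2.28 for CD8A, 2.15 for CD3E, 1.98 for GNLY, 1.40 for CD2 and 1.15 for PRF1. NKG7 and CD3D stood at -0.09 and -0.06 in that fit. When the 3 muscle-bearing libraries were dropped none passed either.

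In GS no member passed between 9 d and 80 d, where 2.65% of all genes did, 1.38% higher and 1.27% lower at 80 d. By edgeR 1 of the 8 members, GNLY, had an unadjusted p under 0.05, as did 3079 of all 15425 genes tested. DESeq2 called 1 member and 1465 of all genes, and limma-voom 0 and 492. GNLY averaged 8.48 ± 4.82 CPM in GS_80d and 37.2 ± 19.5 CPM in GS_9d, with groups that did not overlap, as for 33.7% of all genes (log2 difference -2.13 ± 0.56, adjusted p = 0.0685). The other 7 differed by -0.45 ± 0.58 for NKG7 to 0.64 ± 0.63 for CD3E, with adjusted p of 0.614 to 0.990. The median was -0.04, against -0.005 over all genes.

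Between the breeds at 9 d no member passed, where 1.02% of all genes did, 0.655% higher and 0.363% lower in GS. By edgeR 4 of the 8 members had an unadjusted p under 0.05, as did 2220 of all 15425 genes tested. DESeq2 called 2 members and 891 of all genes, and limma-voom 0 and 120. The largest differences were 2.38 ± 0.89 for CD8A, 1.77 ± 0.77 for CD2, 1.70 ± 0.65 for CD3E and 1.63 ± 0.55 for GNLY, with adjusted p = 0.244, 0.318, 0.252 and 0.195. The groups did not overlap for CD3E, CD2, GNLY and PRF1, all higher in GS_9d, and did not overlap for 18.5% of all genes. NKG7 differed by 0.35 ± 0.58 and CD4 by -0.02 ± 0.71.

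The breed difference depended on age for GNLY. The interaction, the breed difference at 80 d minus that at 9 d, was -5.45 ± 0.81 on the log2 scale (adjusted p = 0.0455), and 0.0648% of all genes passed it, 0.0454% with a negative value. The GNLY call held in 2 of the 12 fits that left out 1 library, those without YK_80d replicate 1 and without GS_9d replicate 3 (adjusted p = 0.00875 and 0.0141). In the other 10 fits the difference was -5.98 to -5.03 with adjusted p of 0.0560 to 0.188, and without YK_80d replicates 2 and 3 it was -4.12 ± 0.80 (0.120). The other 7 members had interactions of -4.56 for CD8A to -1.80 for CD4 and did not pass (adjusted p of 0.180 to 0.548).

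GNLY relative to the other members of the same library was also lower in GS_80d than in YK_80d and GS_9d on average. In such a ratio the scaling between libraries cancels. GNLY over CD3E was 1.06, 3.80 and 1.11 in GS_80d replicates 1 to 3, against 11.2, 5.59 and 5.01 in YK_80d. At 9 d it was 20.3, 11.2 and 7.20 in GS_9d, against 20.7, 6.89 and 16.2 in YK_9d. GS_80d thus lay below all 9 other libraries for this ratio. It also lay below all of them for GNLY over CD8A, at 0.64 to 2.20 against 2.37 or more, and for GNLY over PRF1. With CD2 as partner GS_80d overlapped YK_80d, at 0.773 to 2.52 against 2.38 to 10.3. With NKG7, CD4 and CD3D it overlapped YK_9d, at 0.556 to 2.21 against 0.927 to 1.55 for NKG7. The overlap was 3.37 to 12.15 against 6.99 to 19.2 for CD4 and 2.56 to 6.96 against 6.49 to 53.3 for CD3D. GNLY over PRF1 was 2.17, 3.69 and 2.18 in GS_80d, against 13.1, 9.32 and 4.17 in YK_80d.

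Over the 7 possible partners, the mean log2 ratio of GNLY was lower in GS_80d than in YK_80d for all 7, by -2.87 with CD3D to -1.62 with PRF1. Separate ranges were seen for 5 of the 7, the exceptions being CD2 and NKG7. In GS_80d against GS_9d the ratio was lower for all 7, by -3.06 to -1.66, with separate ranges for 6. The 7 ratios share the GNLY values. Two-sided exact permutation tests gave p of 0.1 to 0.2 in both comparisons, and 0.1 is the smallest p that 3 libraries against 3 can give. The ratios were examined after the levels had been seen.

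**Figure D4:**
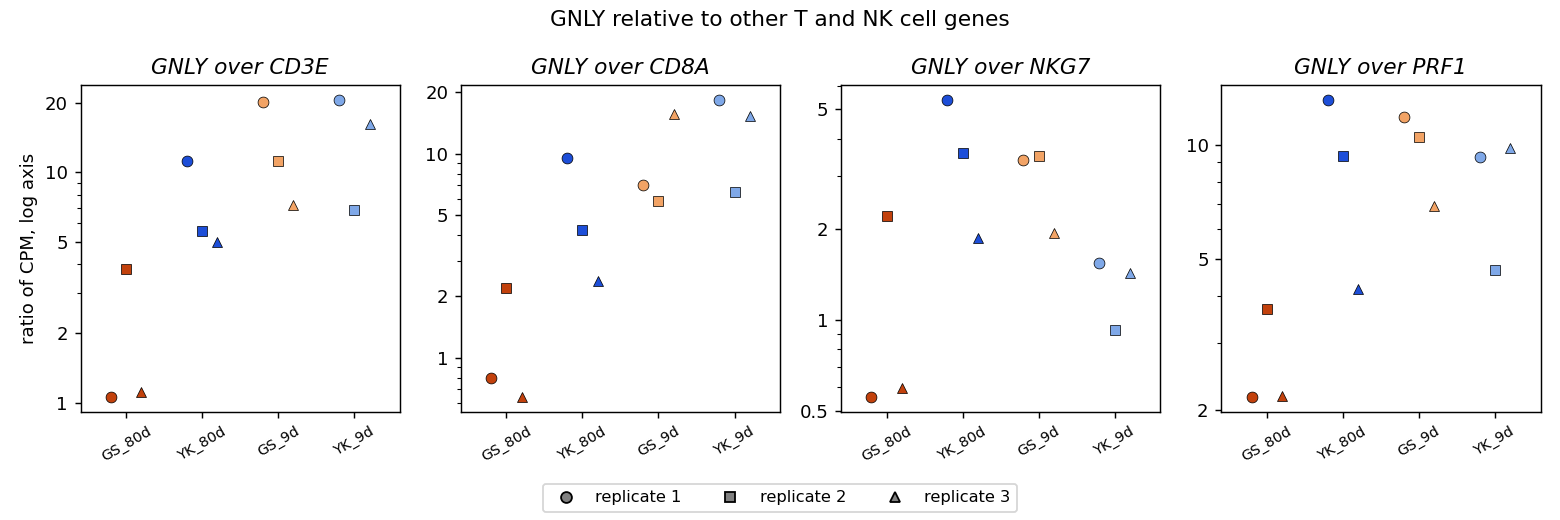
Ratio of GNLY to CD3E, CD8A, NKG7 and PRF1 (CPM over CPM, log axis) in each library of GS_80d, YK_80d, GS_9d and YK_9d, with shapes for replicates 1 to 3. GS_80d lies lowest for CD3E, at 1.06 to 3.80, and also for CD8A and PRF1. It overlaps with YK_80d for NKG7, at 0.556 to 2.21 in GS_80d and 1.87 to 5.38 in YK_80d.

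The balance of CD8A and CD4 transcripts was examined as well, again as a ratio chosen after the levels had been seen. CD8A over CD4 was 11, 5.54 and 5.23 in GS_80d, against 2.35, 9.07 and 8.56 in YK_80d. It was 8.51, 5.26 and 1.58 in GS_9d, against 0.714, 1.07 and 1.26 in YK_9d. The YK_9d libraries lay below all others, and the mean log2 ratio differed by 2.52 between YK_80d and YK_9d and by 2.07 between GS_9d and YK_9d (two-sided exact permutation p = 0.1 for both, the smallest possible). Ranges overlapped in the other comparisons, where it differed by 0.27 between GS_80d and YK_80d (exact permutation p = 0.8) and by 0.72 between GS_80d and GS_9d (p = 0.5). CD4 rests on 7 to 93 fragments per library, which limits the precision of this ratio.

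Other genes of T cell receptor signalling all differed on the side of lower levels in GS_80d, but few passed. Of 28 genes listed, 20 were tested, and 2 of them passed as lower in GS_80d, as did 2.95% of all genes tested. The 2 genes were LCK, the kinase that phosphorylates the CD3 chains (-2.52 ± 0.60, adjusted p = 0.0304), and TRAT1, an adaptor of the receptor complex (-2.49 ± 0.68, 0.0491). LCK stood at 3.90, 4.61 and 7.22 CPM in GS_80d, against 6.49, 32.2 and 51.3 CPM in YK_80d. All 20 differences were negative, with a median of -1.29, and the count was 0 to 3 when 1 library was left out. Without YK_80d replicates 2 and 3 none passed and the median was 0.66. LCK and TRAT1 each kept their call in 1 of the 6 fits without 1 library, where the adjusted p reached 0.130 and 0.173 at most. With YK_80d replicates 2 and 3 both dropped they stood at -0.31 and 0.004. With age in YK, DESeq2 had 13 genes of the list and 527 of all genes rise, and limma-voom 1 and 34. By edgeR 4 of the 20 rose, where 0.81% of all genes did. That count was 0 to 7 when 1 library was left out, and it was 1 with YK_80d replicates 2 and 3 both dropped.

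Of the 22 tested genes of the cytotoxic granule and NK list, 6 passed as lower in GS_80d and none as higher. Of all genes tested, 2.95% passed as lower and 3.17% as higher. TYROBP, an adaptor of activating NK and myeloid receptors, stood at 4.81, 4.96 and 6.21 CPM in GS_80d, against 13.6, 15.5 and 29.3 CPM in YK_80d (-1.87 ± 0.32, adjusted p = 0.00718). Like GNLY it was higher in YK_80d replicate 1 than in any GS_80d library, and it kept its call in the 6 fits without 1 library (adjusted p up to 0.0432). KLRK1, the NK receptor NKG2D, differed by -2.68 ± 0.59 (adjusted p = 0.0235), TBX21, the transcription factor T-bet, by -3.04 ± 0.68 (0.0257), and CST7, an inhibitor of granule proteases, by -2.97 ± 0.76 (0.0386). KLRK1, TBX21 and CST7 were also higher in YK_80d replicate 1 than in any GS_80d library. They kept their calls in 2, 1 and 1 of the 6 fits without 1 library. The highest adjusted p over the 6 fits was 0.108, 0.0998 and 0.219. None of the named genes passed with YK_80d replicates 2 and 3 both dropped, at -1.35 for TYROBP, -0.51 for KLRK1, -0.74 for TBX21 and -0.71 for CST7. The list's median was -2.06, its count was 1 to 9 when 1 library was left out, and it was 0 without YK_80d replicates 2 and 3, with a median of -0.06. Between 9 d and 80 d in YK, DESeq2 had 13 genes of the list and 527 of all genes rise, and limma-voom 1 and 34. By edgeR 8 of the 22 rose, where 0.81% of all genes did. That count was 0 to 9 when 1 library was left out, and it was 0 with YK_80d replicates 2 and 3 both dropped.

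Of 26 tested genes of T cell state, homing and cytokines, 4 passed as lower and 1 as higher in GS_80d. Over all genes the shares were 2.95% lower and 3.17% higher. IL2RG, the shared chain of several cytokine receptors, stood at 6.39, 5.43 and 7.71 CPM in GS_80d, against 15.1, 34.1 and 45.03 CPM in YK_80d (-2.27 ± 0.39, adjusted p = 0.00795). CCL5, a chemokine of activated T cells, stood at 10.5, 14.9 and 17.3 CPM in GS_80d, against 18.9, 142 and 280.5 CPM in YK_80d (-3.37 ± 0.76, adjusted p = 0.0293). IL2RA, the inducible chain of the interleukin 2 receptor, differed by -1.89 ± 0.45 (adjusted p = 0.0308). It stood at 11.5, 17.9 and 10.4 CPM in GS_80d, against 63.5, 67.1 and 17.1 CPM in YK_80d. For IL2RA, YK_80d replicate 3 thus lay within the GS_80d range, and YK_9d stood at 44.4 to 59.5 CPM. CCL4, a chemokine of macrophages and lymphocytes, went the other way, at 8.80, 23.5 and 7.81 CPM in GS_80d, against 0.341, 0.521 and 0.559 CPM in YK_80d (4.81 ± 0.71, adjusted p = 0.00373). The list's median was -0.82, and 2 to 8 passed when 1 library was left out. Without YK_80d replicates 2 and 3 the single call was IL2RA (-2.26, adjusted p = 0.0244) and the median was 0.39. In that fit IL2RG stood at -1.21, CCL5 at -0.41 and CCL4 at 5.285 (adjusted p = 0.0692). IL2RG and CCL4 kept their calls in the 6 fits without 1 library, and CCL5 and IL2RA did so in 2 and 1 of the 6, with adjusted p up to 0.127 and 0.128.

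Transcripts of other cells moved with the members in part. The 14 tested pan-leukocyte genes summed to 321 to 411 CPM in GS_80d, against 321 CPM in YK_80d replicate 1 and 1082 and 1462 CPM in replicates 2 and 3. None of the 14 matched genes was at 0 in any library. CORO1A, a leukocyte actin regulator, was the 1 that passed (-2.60 ± 0.60, adjusted p = 0.0293), and PTPRC, the leukocyte antigen CD45, differed by -1.80 ± 0.50 (0.0542). Of the 14, 12 had an unadjusted p under 0.05, where 3670 of all 15425 genes did. DESeq2 called 9 and limma-voom 0, against 2221 and 961 of all genes, and edgeR called 0 to 11 when 1 library was left out. CORO1A kept its call in 2 of those 6 fits, where the highest adjusted p was 0.126. None of the 14 passed with YK_80d replicates 2 and 3 both dropped, with CORO1A at -0.33 and PTPRC at 0.25. The 16 matched macrophage and dendritic cell genes summed to 206 to 421 CPM in GS_80d. In YK_80d they summed to 240 CPM in replicate 1 and to 572 and 616 CPM in replicates 2 and 3. They were higher at 9 d, at 815 to 886 CPM in GS_9d and 713 to 965 CPM in YK_9d. Of them 2 passed as lower in GS_80d, MARCO and AIF1 (adjusted p = 0.00096 and 0.0194), with 1 to 3 when 1 library was left out. MARCO was at 0 in every GS_80d library and at 2.49, 7.70 and 8.86 CPM in YK_80d. AIF1 stood at 4.14 to 9.96 CPM in GS_80d, against 15.8, 23.3 and 37.8 CPM in YK_80d. Both were thus higher in YK_80d replicate 1 than in any GS_80d library. With YK_80d replicates 2 and 3 both dropped the list's median difference was 0.12. In a library 0 to 3 of the 16 were at 0.

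The 18 cell division genes stood at 61.2 to 81.8 CPM in GS_80d, against 47.5 CPM in YK_80d replicate 1 and 266 and 228 CPM in replicates 2 and 3. Of these, 1 passed as lower in GS_80d, and 0 to 11 of the 18 passed when 1 library was left out. With YK_80d replicates 2 and 3 both dropped, 2 were higher in GS_80d and 0 lower. Of 13 adipocyte genes 6 were higher in GS_80d, summing to 25095 to 28200 CPM in GS_80d and 14147 to 19339 CPM in YK_80d, and 1 to 4 passed when 1 library was left out, and 0 with YK_80d replicates 2 and 3 both dropped. Of all genes tested, 3.17% passed as higher and 2.95% as lower in GS_80d by edgeR. No muscle gene of 13 and no skin gene of 10 passed by edgeR or limma-voom, with 1 and 0 unadjusted p values under 0.05 and 2 and 1 calls by DESeq2. Of all 15425 genes, 3670 had an unadjusted p under 0.05 by edgeR, and DESeq2 called 2221. The part of dividing cells, of adipocytes, of myeloid cells or of the muscle transcripts in the member results was not tested.

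B cell transcripts gave a mixed picture. The 17 B and plasma cell genes summed to 46.4 to 85.1 CPM in GS_80d, against 99.7 CPM in YK_80d replicate 1 and 58.0 and 44.9 CPM in replicates 2 and 3. CD79A alone stood at 28.6, 39.7 and 52.0 CPM in GS_80d replicates 1 to 3, against 80.4, 25.3 and 7.04 CPM in YK_80d. The sum thus followed CD79A in YK_80d. By edgeR CD79A differed by 0.09 ± 1.09 and TNFRSF13C, also on the list, by -0.06 ± 0.28 (adjusted p = 0.973 and 0.931). Relative to each gene's own mean, however, the list's median log2 level was -0.24, 0.92 and 0.71 in GS_80d, against 0.08, 0.90 and 1.19 in YK_80d, so replicates 2 and 3 were not highest by sum but were high by the median gene. The defining B cell genes were seldom at 0 in YK_80d, with 2, 1 and 0 of the 17 at 0 in replicates 1 to 3, against 4, 0 and 0 in GS_80d. No B cell gene passed between the breeds at 80 d by edgeR, none had an unadjusted p under 0.05, and DESeq2 and limma-voom called 0. The list's median was -0.67, and -0.08 without YK_80d replicates 2 and 3. Of the 13 genes listed for lymph node stroma and follicles only 6 were matched, and 1 was lower in GS_80d, CCL19, a chemokine that draws T cells (-1.12 ± 0.30, adjusted p = 0.0478), which kept its call in 1 of the 6 fits without 1 library and stood at -0.68 without YK_80d replicates 2 and 3 (adjusted p = 0.433).

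**Figure D5:**
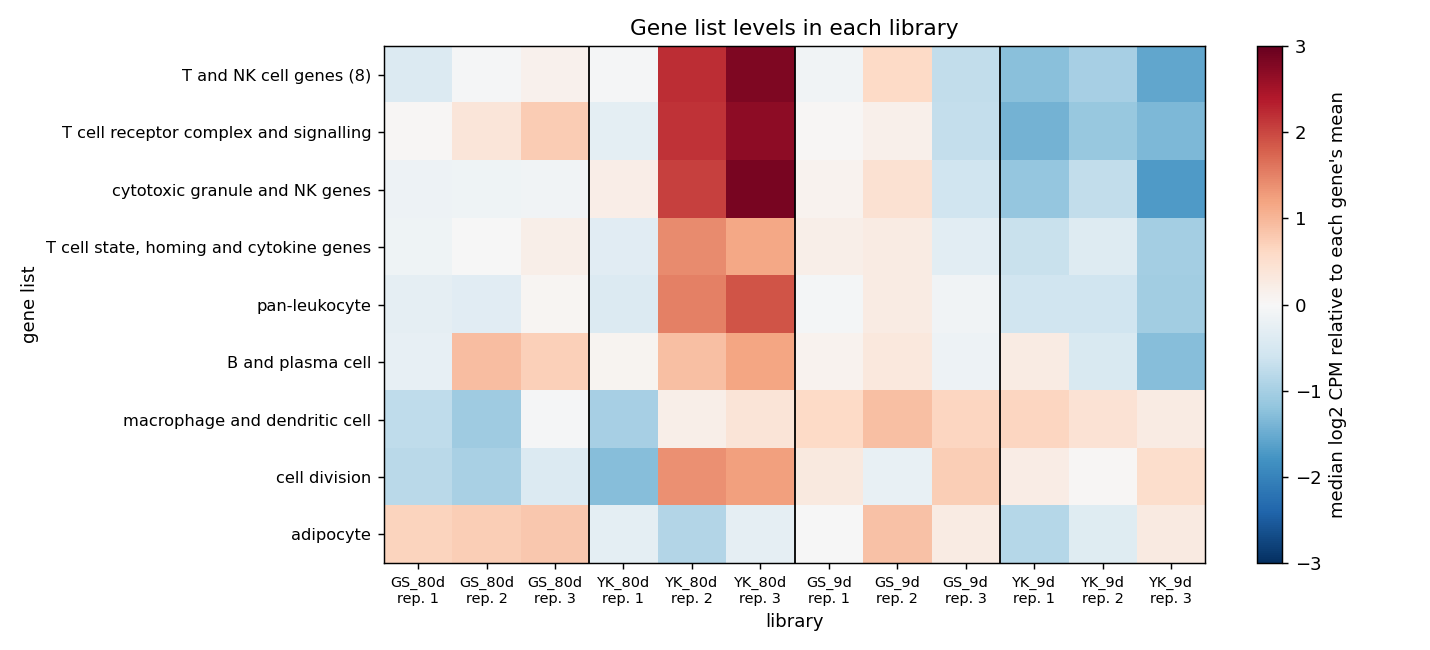
Median log2 CPM of 9 gene lists relative to each gene's own mean over the 12 libraries (colour), with libraries in columns and lists in rows. The T cell and cytotoxic lists are highest in YK_80d replicates 2 and 3, at 2.04 to 2.85 for the 8 members and the receptor and cytotoxic lists, and the B and plasma cell list stays at 0.90 and 1.19 there.

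The genes most like the members over the 12 libraries were found from the Pearson correlation of log2 CPM with the mean standardized level of the 8 members. The 8 closest were LCK (r = 0.986), CCL5 (0.982), KLRK1 (0.982), TRAT1 (0.973), JAK3 (0.969), RAC2 (0.967), IKZF3 (0.966) and RIPOR2 (0.965). JAK3 and RIPOR2 were not on any list, and JAK3 is the kinase bound to the IL2RG chain. The values share libraries and their depth, and they lean on YK_80d replicates 2 and 3. Over the other 10 libraries r was 0.933 for LCK, 0.931 for CCL5, 0.926 for KLRK1 and 0.837 to 0.876 for the other 5.

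The related lists were also counted in the other comparisons. Between the breeds at 9 d no gene passed in the receptor, cytotoxic and T cell state lists by edgeR. Of their 20, 22 and 26 tested genes, 3, 5 and 8 had an unadjusted p under 0.05, as did 2220 of all 15425. DESeq2 called 0, 2 and 2 and limma-voom 0 in each, against 891 and 120 of all genes. Between 9 d and 80 d in GS the receptor and cytotoxic lists had 0 calls by edgeR. Both lists had 2 unadjusted p values under 0.05 each, where 3079 of all 15425 genes did. Both had 1 call by DESeq2 and none by limma-voom, against 1465 and 492 of all genes. The T cell state list had 1 gene that rose by edgeR, CCL4 (2.76 ± 0.64, adjusted p = 0.0427). The CCL4 call was lost in each of the 6 fits without 1 GS library and without YK_80d replicates 2 and 3. The median log2 differences of these 3 lists in GS were 0.63, -0.23 and 0.01. In YK, DESeq2 had 10 T cell state genes and 527 of all genes rise, and limma-voom 0 and 34. By edgeR 6 of the 26 rose, where 0.81% of all genes did. That count was 0 to 8 when 1 library was left out, and it was 0 with YK_80d replicates 2 and 3 both dropped.

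Among the members themselves CD3E, CD2, CD8A and PRF1 followed each other more closely than any of them followed GNLY, given here as a description. Over 12 libraries r was 0.953 for CD3E with CD8A, 0.955 for CD2 with PRF1 and 0.653 for CD3E with GNLY. Over the 10 libraries without YK_80d replicates 2 and 3 these were 0.896, 0.891 and 0.107, and the 6 pairs among CD3E, CD2, CD8A and PRF1 lay at 0.805 to 0.896 while GNLY with those 4 lay at 0.107 to 0.584. In those 10 libraries r was 0.260 for NKG7 with CD3E and -0.01 for CD3D with CD4.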

How the data were processed

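RNA-seq of subcutaneous back fat was taken from 12 libraries, 3 per group. Total RNA was extracted with TRIzol and made into libraries with a stranded KAPA kit, per the labels' protocols. The authors deposited 1 table of estimated counts (expected counts) for 24358 pig Ensembl gene IDs, not scaled between libraries. All values are whole numbers and were tested as deposited. No source used here names the aligner, counter or annotation, and the submitters' processing notes name the mouse build mm10, so no coordinates are printed. Low values cluster near multiples of 3.76 units (3354 values equal 4, against 1233 equal 3 and 795 equal 5), so the values overstate fragments by that factor.

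Symbols came from a supplied table that names 14692 of the IDs. After edgeR's filterByExpr, 15425 genes were tested with edgeR 4.0.16 in R 4.3.3 (TMM factors 0.888 to 1.10, robust quasi-likelihood fit of 4 groups, 8 residual degrees of freedom). Contrasts were two-sided, with Benjamini-Hochberg adjustment over all genes tested and a threshold of 0.05. A standard error is the log2 difference over the square root of F. Log2 CPM used a prior count of 2. DESeq2 1.42.0 and limma-voom (limma 3.58.1) were alternatives. The procedure was tested on simulated data in which all libraries of a group shared the same mean for each gene. That setting does not cover a group whose libraries differ as those of YK_80d do. No pair of libraries in a group agreed within sampling noise, with a chi-square per degree of freedom of 35.5 or more.

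The members and the 11 other lists were chosen with earlier results of these data known, and the lists' counts are not independent evidence. Of the other genes, the rule took up to 4 called members per list at 80 d with the smallest adjusted p, and PTPRC, ADIPOQ and CCL5 in any case. Those of lists away from lymphocytes are not all printed.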

Additional observations from a re-analysis of the deposited data

Results flagged for a closer look

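GNLY had a breed difference that differed between the ages, with an interaction of -5.45 ± 0.81 on the log2 scale (edgeR, adjusted p = 0.0455). All 3 GS libraries lay below all 3 YK libraries at 80 d, and at 9 d the order was the opposite, with no overlap. The call was lost in 10 of the 12 fits that left out 1 library.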

How the results depend on the processing

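Counts of members called moved with the setting. At 80 d the 3 members lower in GS were 6 by DESeq2, 1 by limma-voom, with only the groups compared and without the 3 libraries with muscle transcripts, 0 without YK_80d replicates 2 and 3, and 1 to 5 when 1 library was left out. For age in YK the 5 were 6 by DESeq2, 3 with no filter on low counts, 1 by limma-voom and with only the groups compared, 0 without YK_80d replicates 2 and 3 or without the muscle libraries, and 0 to 6 when 1 library was left out. The breed difference at 9 d gave 2 by DESeq2 and age in GS 1 by DESeq2, and both stayed at 0 when 1 library was left out. The 1 interaction call was 6 by DESeq2, and 0 by limma-voom, with no filter, without YK_80d replicates 2 and 3 and without the muscle libraries, and 0 to 5 when 1 library was left out.

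The labels state no pairing of samples by replicate number. Deviations of same-numbered libraries from their group means correlated at -0.224 to 0.147, and not every library matched its own number best. With 3 libraries per group these values cannot settle whether samples were paired. With a replicate block the members called were 1 at 80 d (GNLY, adjusted p = 0.00944), 1 for age in YK (CD3E, 0.0257) and 0 for the interaction. Genes called under the block were 65 for age in YK, 49 for breed at 9 d and 2 for the interaction, against 186, 157 and 10 without it.

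Over all genes, the 944 called at 80 d were 2221 by DESeq2, 242 without YK_80d replicates 2 and 3, 290 without the muscle libraries and 255 to 916 when 1 library was left out. For breed at 9 d the 157 were 891 by DESeq2, 29 with only the groups compared, 39 without the muscle libraries and 5 to 284 when 1 library was left out. For age in YK the 186 were 850 by DESeq2, 58 by limma-voom, 46 with only the groups compared, 74 without YK_80d replicates 2 and 3, 51 without the muscle libraries and 27 to 245 when 1 library was left out. For age in GS the 409 were 1465 by DESeq2, 1055 with only the groups compared, 150 without the muscle libraries and 78 to 122 when 1 library was left out. For the interaction the 10 were 369 by DESeq2, 6 by limma-voom, 21 without YK_80d replicates 2 and 3 and 5 to 90 when 1 library was left out. The cause was not tested.

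Of 640 alternative values for members, 24 had the other sign, none past the threshold. Of 270 for other named genes, 4 did, those of IKZF3, PTPRC, RAC2 and TRAT1 below, none past the threshold. Without YK_80d replicates 2 and 3, the 80 d differences were 0.179 for CD3E, 0.841 for CD3D, 0.329 for CD2, 0.644 for CD8A, 0.62 for IKZF3, 0.246 for PTPRC, 0.026 for RAC2 and 0.004 for TRAT1. In that fit the age difference in YK was -0.059 for CD3D and -0.09 for NKG7, and the interaction 0.012 for CD3D. For age in GS, CD2 was 0.111 by limma-voom, 0 with the replicate block and -0.322 to 0.431 when 1 library was left out. CD3D was 0.188 by limma-voom and -0.397 to 0.564 when 1 library was left out, CD4 then ranged over -0.366 to 0.954 and PRF1 over -0.482 to 0.084. For CD4 at 9 d the difference was 0.008 in fragment units, 0.3 without the muscle libraries and -0.667 to 0.271 when 1 library was left out. Depth limits CD3D and CD4 most.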
